A study of Mus musculus with 24 samples.

Results

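The 10 genes described here are the core of the mammalian circadian clock and its closest output: Arntl (BMAL1), Npas2, Clock, Per1, Per2, Per3, Cry1, Nr1d1, Nr1d2 and Dbp. They were taken from a list of mouse symbols, matched to the array through RefSeq accessions, and all 10 had a probe among the 21368 genes with a symbol. Their transcripts were read on 24 arrays, for 4 tissues (liver, brain, heart and skeletal muscle) from each of 6 female mice. KI mice A, B and C were homozygous for a Rap1 knockin allele (RAP1 MUT in the labels), a CRISPR/Cas9 point change that replaces an isoleucine of RAP1 with arginine, and the controls were their WT littermates D, E and F. The line had been crossed back to C57BL/6N. The 3 arrays of a group come from 3 separate animals. KI C and WT F were 14 months old and the other 4 mice were 15 months old. The hour at which tissues were taken and the feeding state of the mice are not given in the sources used here. A level is the log2 signal minus the 75th percentile of its array, so a difference of 1 is a doubling of signal.

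The clock of a cell is a loop of transcription. CLOCK or its relative NPAS2 pairs with BMAL1 and activates genes that carry an E-box, among them the Per and Cry genes, whose proteins return to the nucleus and repress the activators, and Nr1d1 and Nr1d2, whose products REV-ERB alpha and beta repress Arntl. DBP, a transcription factor of the same E-box wave, acts on D-boxes, as in the Per genes. Transcripts of the activator Arntl therefore peak at nearly the opposite time of day from Dbp and Nr1d1, and their levels in a tissue depend on the hour of sampling. Per1 and Per2 also respond to acute signals such as glucocorticoids.

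Letters that match motifs of this loop are shown for the 4 members with a match before the start. RefSeq promoters of GRCm38.p6, covering 250 bases before to 50 bases after a start, were on hand for 9 of the 10 genes, in 13 entries, so Per2 was not searched. Stretches of 120 bases before the start are given 5′ to 3′ on the strand of the gene, with motif letters in capitals. Per1 lies on the plus strand at chr11:69098729-69098848, Cry1 on the minus strand at chr10:85185065-85185184, Nr1d1 on the minus strand at chr11:98775378-98775497 and Per3 on the minus strand at chr4:151044781-151044900.
Per1: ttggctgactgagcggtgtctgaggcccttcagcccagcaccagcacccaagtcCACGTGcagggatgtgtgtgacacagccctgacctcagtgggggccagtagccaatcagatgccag
Cry1: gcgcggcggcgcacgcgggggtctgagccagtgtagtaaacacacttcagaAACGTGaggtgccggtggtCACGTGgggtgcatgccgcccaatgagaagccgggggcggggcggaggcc
Nr1d1: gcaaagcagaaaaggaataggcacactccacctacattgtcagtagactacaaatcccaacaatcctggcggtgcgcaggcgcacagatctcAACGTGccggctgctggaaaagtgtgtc
Per3: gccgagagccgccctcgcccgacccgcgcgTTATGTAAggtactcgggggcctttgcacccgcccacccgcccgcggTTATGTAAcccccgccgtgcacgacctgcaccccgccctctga
The E-box CACGTG, which reads the same on both strands, was found in Per1 and Cry1 and in 7.15% of all 32851 promoters of this length. The non-canonical E-box CACGTT, read on both strands and here as AACGTG, was found in Cry1 and Nr1d1 and in 4.68% of all promoters. The D-box, searched as TTATGTAA and TTACGTAA on both strands, was found in Per3 alone among the 9 members searched, as 2 copies, and in 1.06% of all promoters. The element of REV-ERB and ROR proteins, searched as TAGGTCA on both strands, was found in 1 of the 2 Arntl entries, 31 bases after the start, and in 2.61% of all promoters. No motif shares letters with another in the stretches shown. A match of letters is a description of the window and does not show binding.

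Each labelled tissue held its own transcripts: all 6 defining markers of liver, brain, heart and skeletal muscle were well above background on every array of their tissue. In brain, 4 or 5 of 5 neuropeptide genes of the suprachiasmatic nucleus, the seat of the central clock, were above background as well. Of the arrays, 3 also carried transcripts of another tissue. The summed skeletal muscle markers reached 3.81 (log2) in the liver of KI C against -2.44 to -1.27 in the other livers, the summed liver markers reached 8.53 in the brain of KI C against 5.40 to 6.96, and the summed mammary markers reached 2.61 in the muscle of KI B against -2.89 to -2.37. Fat transcripts stood out in the heart of KI B for 3 of 4 markers (Adipoq 1.38 against -2.94 to -0.64, Cfd 5.08 against 0.29 to 3.08, Plin1 -0.53 against -3.79 to -2.37), but not for Fabp4, the brightest (6.71 against 7.11 to 7.61). The summed brain markers were 5.65 in the liver of KI A and 5.36 in that of WT F against 3.06 to 3.78 in the other livers. Snap25 made up most of this (5.57 and 5.20 against 2.19 to 3.51). Both livers were kept where the 3 arrays were left out. The heart markers Myl7 and Nppa also varied widely between hearts. Myl7 was 7.44 in KI B and 4.27 in WT E against -3.26 to 0.18, and Nppa 9.03 and 7.69 against 4.49 to 5.31. Myh6, Myl2, Tnni3 and Ryr2 varied less there. In muscle, Myl2 ran from 1.34 to 8.83. The part of these differences in the clock levels was not tested. Terf2ip, the gene of RAP1, gave log2 differences of -0.33 to -0.07 between KI and WT and passed the test in no tissue, its second probe gave 0.06 to 0.08 in liver, brain and muscle, and its level is no check of a point change. In bulk tissue, fewer cells of a type and less RNA per cell cannot be told apart.

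Of the members, 9 were well above background on all 6 arrays of every tissue. The exception was Npas2, the partner of BMAL1 that can stand in for CLOCK and is known from the forebrain. Npas2 was above background on all 6 brain arrays, with levels of -4.18, -3.37 and -3.79 in KI A, B and C and -3.70, -3.55 and -3.61 in WT D, E and F. It was above background on 2 of 6 heart arrays (KI B and WT D) and on no liver or muscle array. Brain Npas2 was therefore at least 2.58-fold higher than in liver and at least 1.72-fold higher than in muscle, given without a test since it was not measured there, where the dim side is set at the lowest level still well above background on each array.

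**Figure D1:**
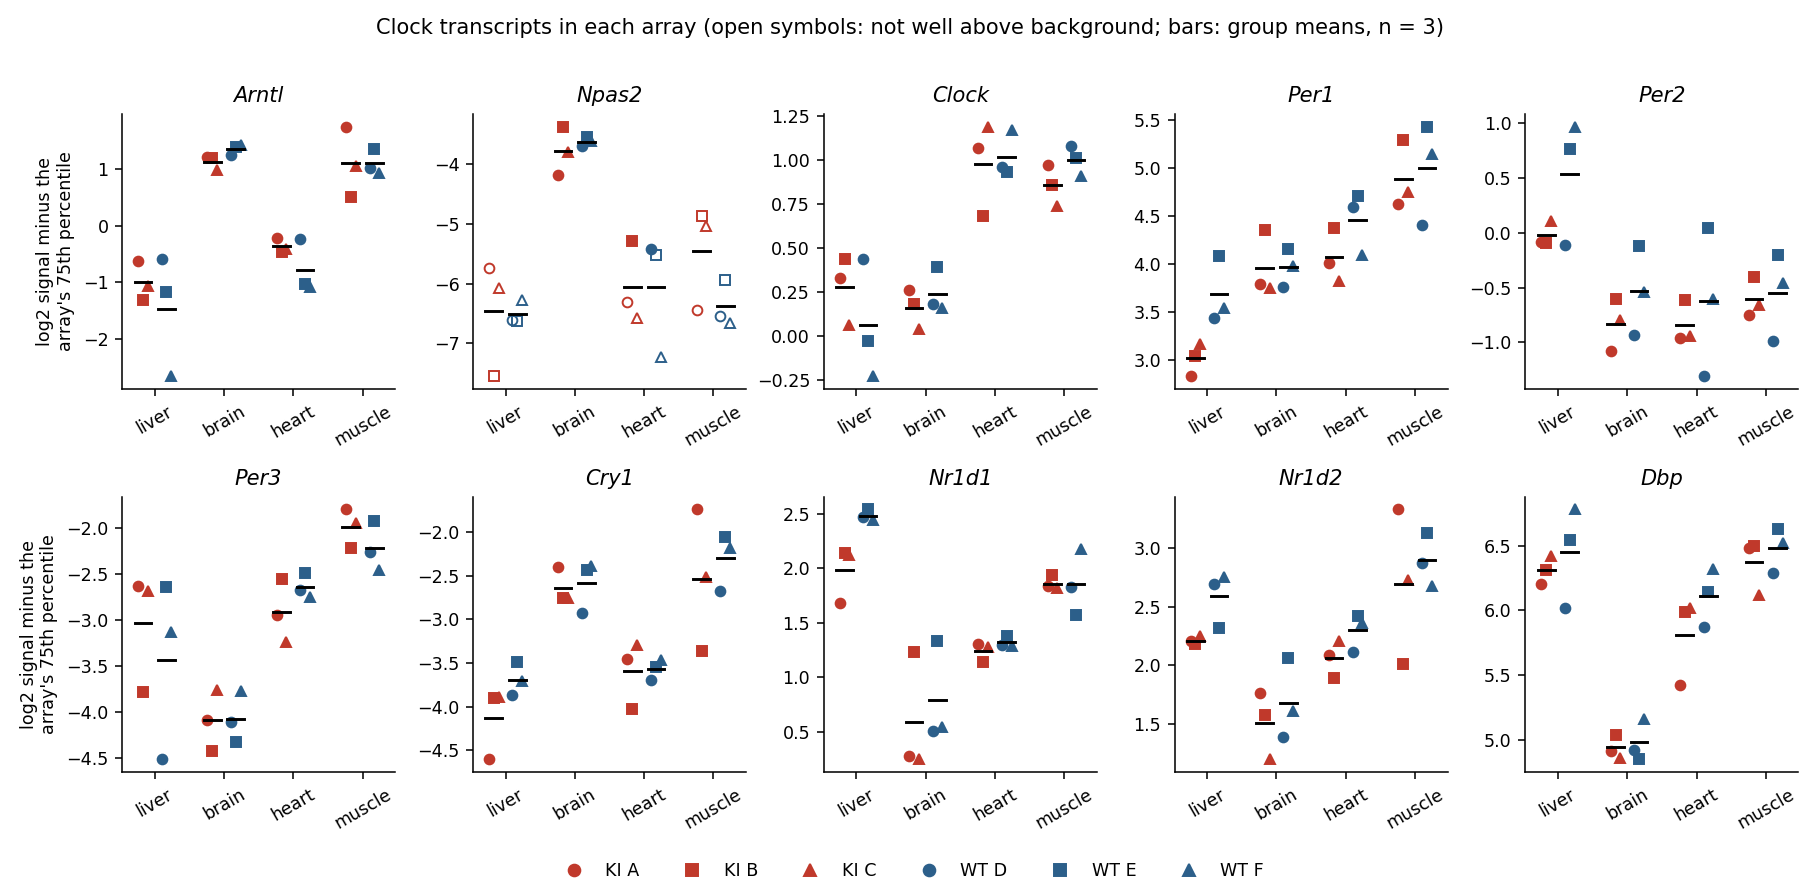
Levels of the 10 clock transcripts (log2 signal minus the 75th percentile of the array) by tissue, with 1 symbol per array, red for KI and blue for WT mice, and bars at the means of 3 arrays; open symbols were not well above background. Npas2 is filled on all arrays in brain only, and in liver the KI symbols of Per1 (2.83 to 3.17) lie below the WT symbols (3.44 to 4.08).

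The clock genes took different levels in the 4 tissues, as did most genes. Over the means of both genotypes, and leaving aside Npas2, which entered these tests only through brain, 8 of 9 members differed between liver and brain, 6 between liver and heart, 6 between liver and muscle, 7 between brain and heart, 6 between brain and muscle and 7 between heart and muscle. The corresponding shares of all 17304 genes tested were 84.3%, 73.9%, 79.2%, 79.3%, 82.1% and 64.7%, so the members' share lay above that of all genes in 2 pairs and below it in the other 4, with no test of the difference. The median over all genes of these tissue differences lay between -0.27 and 0.19, and between -0.13 and 0.06 after quantile normalization, so a small difference between tissues depends on the scaling.

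Among the activators, Arntl was highest in brain (1.25 ± 0.16, SD, n = 6) and muscle (1.11 ± 0.42), which differed by 0.13 with a 95% interval of -0.44 to 0.71. Heart followed at -0.58 ± 0.39, 1.69 below muscle (adjusted p = 3.24e-05), and liver at -1.24 ± 0.76. The step from heart to liver, 0.66 (adjusted p = 0.0377), was lost after quantile normalization (0.59, adjusted p = 0.0631) and in 6 of the 24 fits that left out 1 array, most of all without the liver of WT F (0.36, adjusted p = 0.128), the lowest Arntl array. Clock, which encodes a partner of BMAL1, was higher in heart (1.00 ± 0.19) and muscle (0.93 ± 0.12) than in brain (0.20 ± 0.12) and liver (0.17 ± 0.28). The step between muscle and brain was 0.73 (adjusted p = 1.36e-05), and neither the upper nor the lower pair differed beyond its spread.

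Among the repressors, Per1 ranked from muscle (4.94 ± 0.41) to heart (4.26 ± 0.35), brain (3.97 ± 0.24) and liver (3.35 ± 0.44), where heart and brain did not separate. The muscle to heart step of 0.68 (adjusted p = 0.0042) was 0.35 after quantile normalization (adjusted p = 0.15). Per2, a repressor of the same family, was highest in liver (0.26 ± 0.48), 0.83 above muscle (adjusted p = 0.00215), and its means in muscle, brain and heart lay within -0.73 to -0.58. Per3 ran from muscle (-2.10 ± 0.25) through heart (-2.78 ± 0.28) and liver (-3.23 ± 0.77) to brain (-4.08 ± 0.27). Heart and liver did not separate, and the step of 0.67 from muscle to heart (adjusted p = 0.0318) lost its call in 7 of the 24 fits that left out 1 array and with WT arrays alone (0.42, adjusted p = 0.384). With WT arrays alone the liver to brain steps of Per3 (0.64, adjusted p = 0.154) and Per1 (0.28, adjusted p = 0.369) lost their calls too. Cry1, whose protein represses CLOCK and BMAL1, was higher in muscle (-2.42 ± 0.57) and brain (-2.61 ± 0.23) than in heart (-3.58 ± 0.26) and liver (-3.91 ± 0.37), with a step of 0.97 between brain and heart (adjusted p = 0.000588).

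Brain was the lowest tissue for both REV-ERB genes and for Dbp. Nr1d1 ranked from liver (2.23 ± 0.32) and muscle (1.86 ± 0.20), which did not separate, to heart (1.28 ± 0.08) and brain (0.69 ± 0.47). With WT arrays alone its steps from muscle to heart (0.54, adjusted p = 0.0632) and from heart to brain (0.53, adjusted p = 0.0503) lost their calls. Nr1d2 was 2.79 ± 0.46 in muscle, 2.40 ± 0.25 in liver, 2.18 ± 0.20 in heart and 1.60 ± 0.30 in brain, with only the last step past the threshold (0.58, adjusted p = 0.00639). Dbp was 6.42 ± 0.19 in muscle and 6.38 ± 0.27 in liver, 5.96 ± 0.31 in heart and 4.96 ± 0.12 in brain. The Dbp step from liver to heart, 0.42 (adjusted p = 0.0106), turned to -0.18 after quantile normalization and lost its call with the second Dbp probe (0.35, adjusted p = 0.0851). The brain to heart step of 1.00 was 0.27 with normexp background correction and quantile normalization (adjusted p = 0.051).

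The comparison of genotypes asks whether the knockin changes the clock transcripts within a tissue. No member passed the threshold in liver (9 tested), brain (10), heart (9) or muscle (9), nor in each animal's mean over tissues (10), and neither did any other gene, so the background is 0% in all 5 comparisons. At an unadjusted p under 0.05 there were 3 members in liver, all with the lower mean in KI mice, where 11.7% of genes were past that mark in either direction and 4.25% with KI lower. There was no member past it in brain, heart, muscle or the mean of tissues, against 0.79%, 1.65%, 0.851% and 3.47% of genes. A p that misses the threshold here, with 3 arrays against 3, does not show that the genotypes were alike, and the intervals give the sizes that the data allow.

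In liver, 4 of the 9 members tested had every KI array below every WT array: Per1, Cry1, Nr1d1 and Nr1d2, all repressors of the loop. Genes without overlap made up 19.7% of all genes in liver, and those with all KI below all WT 7.51%. Under quantile normalization, normexp or the authors' value table, 3 members did not overlap. Liver Per1 was 2.83, 3.04 and 3.17 in KI A, B and C and 3.44, 4.08 and 3.54 in WT D, E and F. Liver Nr1d1 was 1.68, 2.14 and 2.12 in KI livers, against 2.47, 2.54 and 2.44 in the WT ones. For Nr1d1 the 3 WT livers lay close together, and KI A was the lowest array for both genes. Per1 differed by -0.67 (SE 0.20, 95% interval -1.15 to -0.19, adjusted p = 0.389) and Nr1d1 by -0.50 (SE 0.16, -0.88 to -0.13, adjusted p = 0.402). Nr1d2 was 2.21, 2.18 and 2.25 in KI and 2.69, 2.32 and 2.75 in WT livers, a difference of -0.38 (SE 0.15, -0.73 to -0.02, adjusted p = 0.418). Cry1 was -4.60, -3.90 and -3.89 in KI and -3.87, -3.49 and -3.71 in WT livers, where the nearest arrays, KI C and WT D, were almost level, and its interval of -0.99 to 0.11 included 0. Without the liver of KI C, which carried muscle transcripts, the differences were -0.75 for Per1, -0.57 for Nr1d1 and -0.39 for Nr1d2, and over the 6 fits that left out 1 array Per1 stayed between -0.79 and -0.48.

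**Figure D2:**
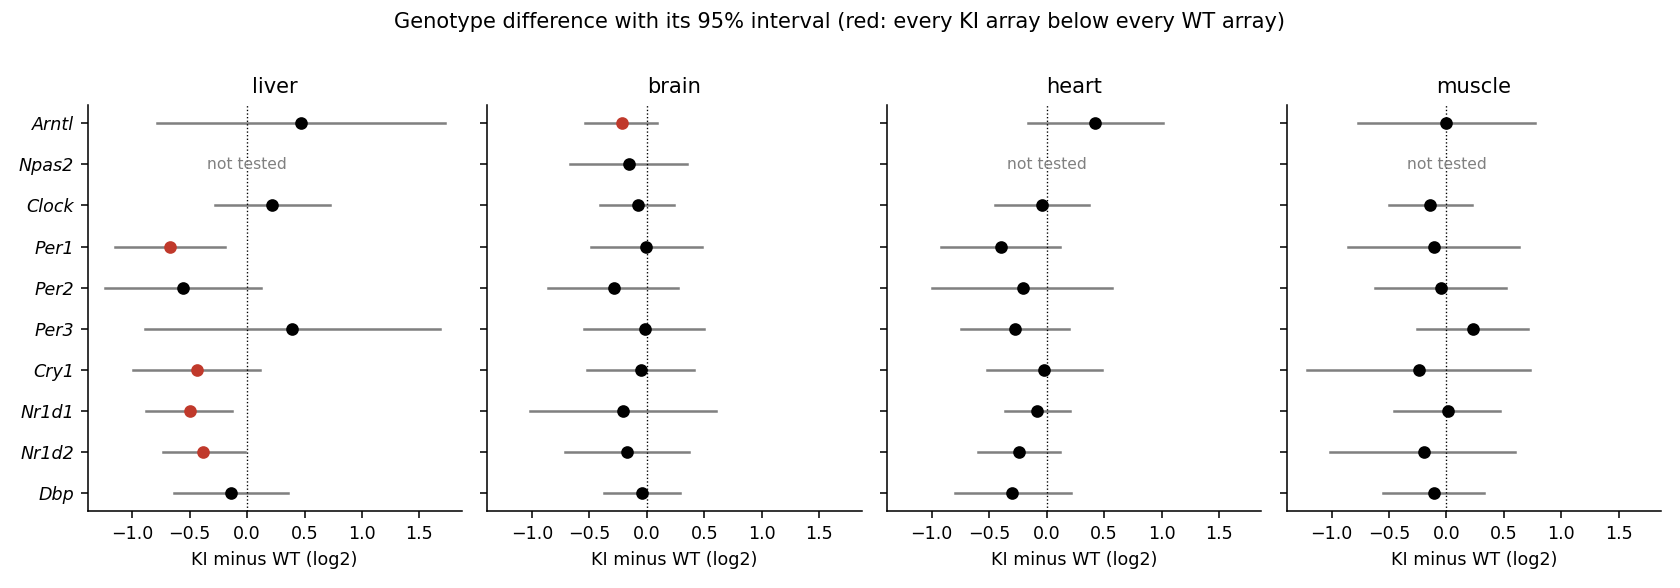
KI minus WT difference (log2) of each clock transcript in each tissue, with points at the estimate, lines for the 95% interval and red points where every KI array lay below every WT array. In liver the red points are Per1 (-0.67), Cry1, Nr1d1 (-0.50) and Nr1d2 (-0.38), and in brain Arntl (-0.22); every interval in brain, heart and muscle, and that of liver Cry1, includes 0.

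The other 5 liver members overlapped between genotypes. Per2 was -0.08, -0.09 and 0.11 in KI and -0.11, 0.77 and 0.97 in WT livers, so WT D lay with the KI mice while WT E and F stood above them. Arntl was -0.63, -1.31 and -1.07 in KI and -0.58, -1.17 and -2.67 in WT livers, with WT F the lowest of the 6. These spreads left wide intervals, -1.24 to 0.12 for the Per2 difference and -0.78 to 1.72 for Arntl. Dbp and Clock differed by -0.14 and 0.22, and Per3 by 0.39 over WT livers that ranged from -4.51 to -2.64. The median difference of the 9 members in liver was -0.38, beside 0.04 over all genes tested, and 6 of the 9 were below 0. Macrophage transcripts moved with genotype in the same livers: all 4 macrophage markers (Adgre1, Cd68, Csf1r and C1qa), above background on every liver array, had higher KI means without passing the test (adjusted p of 0.358 to 0.382), and their summed level was 5.33 to 5.58 in KI and 4.75 to 4.90 in WT mice. The part of these cells in the clock differences was not tested.

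In brain the median difference of the 10 members was -0.12, beside -0.03 over all genes. All 10 estimates were below 0, but Per1 (-0.01), Per3 (-0.02), Dbp (-0.04) and Cry1 (-0.05) were close to it, and every interval included 0. The share of all genes with a lower KI mean is not given for any tissue, so counts of estimates below 0 have no background. Arntl was the only member without overlap, at 1.22, 1.20 and 0.99 in KI brains against 1.25, 1.39 and 1.44 in WT brains, where 2.86% of all genes did not overlap and 1.58% had all KI below all WT. The nearest arrays, KI A and WT D, which shared a slide, differed by 0.03. The Arntl difference was -0.22 (SE 0.13, -0.54 to 0.09, adjusted p = 1), -0.03 within slide 1 and -0.32 within slide 2. Brain Per2 and Nr1d2 followed with -0.29 and -0.17, and without the brain of WT E the Nr1d2 difference was 0.01.

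In heart and muscle no member was without overlap, against 5.03% and 3.54% of all genes, and 9.04% of genes did not overlap in the mean of tissues, where again no member did. The members of smallest p in heart were Per1 (-0.40, SE 0.22), Arntl (0.42, SE 0.25) and Nr1d2 (-0.24, SE 0.15), each with an adjusted p of 0.971. Within slides 2 and 3 the heart differences were -0.46 and -0.27 for Per1 and 0.30 and 0.67 for Arntl. Without the heart of KI B, which stood out in fat transcripts, the differences were -0.55 for Per1, 0.48 for Arntl and -0.15 for Nr1d2. Of the 9 members, 8 had the lower mean in KI heart, with a median difference of -0.21 beside -0.05 over all genes. Heart Arntl was -0.21, -0.47 and -0.41 in KI hearts against -0.24, -1.04 and -1.08 in WT hearts, so WT D lay among the KI mice there too. In muscle the members of smallest p were Per3 (0.23, SE 0.20), Clock (-0.14, SE 0.15) and Dbp (-0.11, SE 0.18), and Arntl and Nr1d1 differed by 0.00 and 0.01. In the mean of tissues Nr1d2 (-0.25, SE 0.13), Nr1d1 (-0.20, SE 0.11) and Per1 (-0.30, SE 0.19) had the smallest p, with an adjusted p of 0.983 for each. No member had a genotype effect that differed between tissues (moderated F-test, 0 called and 0 at an unadjusted p under 0.05, against 0% and 1.86% of 17304 genes). Age gave the same counts, 0 called and 0 at an unadjusted p under 0.05, against 0% and 5.22% of genes, with Arntl -0.36 (SE 0.21) in the 14-month mice the largest estimate. This estimate rests largely on WT F, with a mean Arntl deviation of -0.48, while KI C, the other 14-month mouse, lay at 0.00. Over the fits that left out 1 mouse it ran from -0.59 to -0.12.

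Other clock genes were read from a list of 17, which holds paralogs of the members and kinases, ubiquitin ligases and repressors of the same loop. None of the 15 to 17 tested passed the threshold in any genotype comparison. Ciart, a repressor of CLOCK and BMAL1, differed by -0.93 in heart (SE 0.25, adjusted p = 0.971), the only gene of the list at an unadjusted p under 0.05 in any tissue, and its heart values of -1.39, -0.62 and -1.06 in KI mice lay below the WT values of -0.36, 0.29 and -0.22. Of the estimates of this list, 7 of 15 were below 0 in liver, 13 of 17 in brain, 15 of 16 in heart and 8 of 16 in muscle. Their medians were 0.07, -0.12, -0.14 and 0.04, beside 0.04, -0.03, -0.05 and 0.02 over all genes, with no test of the difference. Of 7 clock outputs, 6 had lower KI estimates in liver, with a median of -0.26 beside 0.04 over all genes. Nampt, the rate-limiting enzyme of NAD salvage, led them at -0.34 (SE 0.12, adjusted p = 0.402).

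The comparison of mice within a genotype asks whether an animal stood apart in the same direction in all its tissues. Over all genes, 5 of 17304 (0.0289%) passed, all outside the clock list and named here after their values were seen: Mid1, Paip1, Fam205a2, Gm3893 and 4933409K07Rik. No member passed. At an unadjusted p under 0.05 there were 2 members, Per2 and Per1, against 4.02% of all genes. Per2 had the 7th smallest p of 17304 genes (F = 13.43, adjusted p = 0.243), and Per1 followed with F = 4.81 (adjusted p = 0.908).

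Per2 lay on the same side of the tissue mean in all 4 tissues in 5 of the 6 mice. At least as many such mice were found for 0.0516% of the 11620 genes above background on all arrays. This count reads the same deviations as the F-test, so it is no separate support. Per1 had 3 such mice, Cry1 and Dbp 2, Clock, Nr1d1 and Nr1d2 1, and Arntl and Per3 0, beside a median of 1 over these genes. WT E was above the mean by 0.51 (liver), 0.56 (brain), 0.77 (heart) and 0.38 (muscle), and WT F, in this order, by 0.71, 0.14, 0.13 and 0.12. WT D was below it by -0.37, -0.26, -0.58 and -0.42, and KI A by -0.34, -0.40, -0.24 and -0.17. KI C was slightly low throughout and KI B had a low liver only. WT E and WT D had the highest and lowest mean Per2 deviation (0.55 and -0.41) and were picked after their values were seen. They lay further apart than the genotype means in every tissue, which for mice picked as extremes does not weigh mouse against genotype. In liver and in muscle all 6 arrays shared a slide, while in brain KI A and WT D were on another slide than the other 4 mice. The Per2 test rests in large part on WT D: without this mouse F was 2.52 (adjusted p = 0.899), and over the fits without each of the other 5 mice it was 10.11 to 18.95. Without the 3 arrays that carry transcripts of another tissue F was 11.58, and without the heart of KI B as well it was 10.60 for Per2 and 3.14 for Per1.

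**Figure D3:**
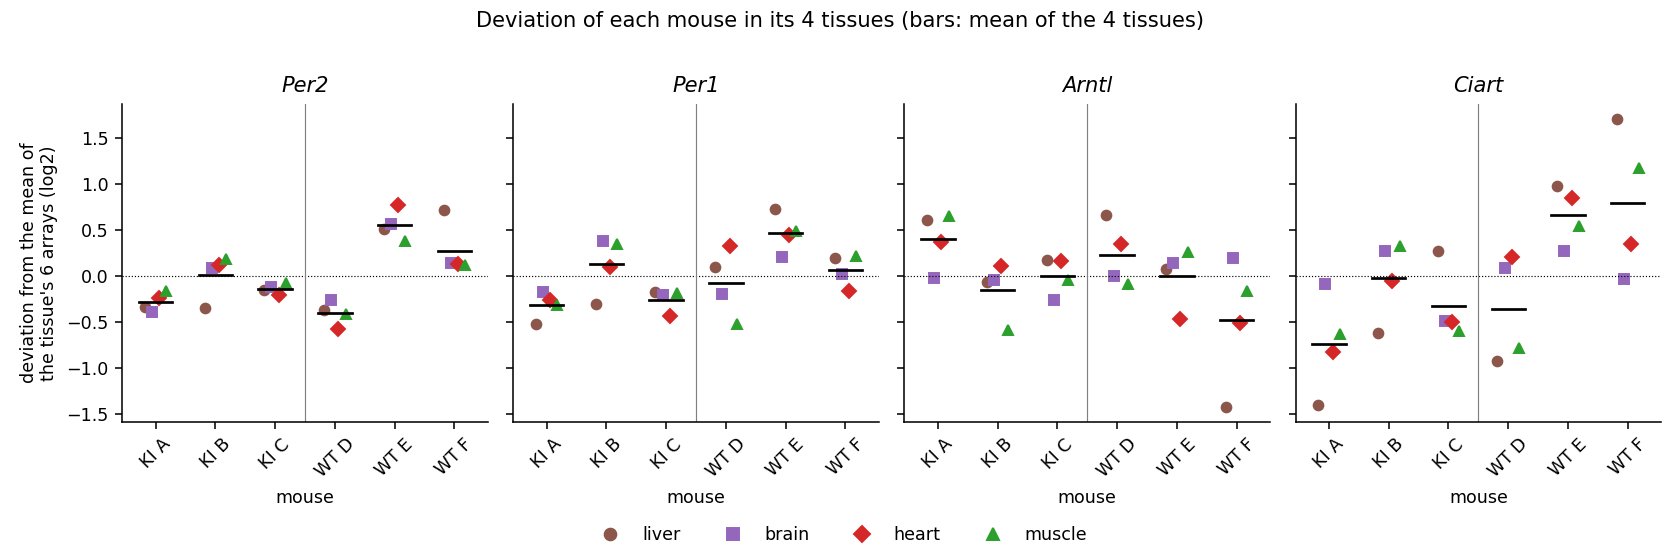
Deviation of Per2, Per1, Arntl and Ciart from the mean of the 6 arrays of each tissue (log2), by mouse, with 1 symbol per tissue and a bar at the mean of 4 tissues. Per2 of WT E lies above 0 in all tissues (0.38 to 0.77) and that of WT D below 0 (-0.58 to -0.26), while Arntl of WT F spreads from -1.43 in liver to 0.19 in brain.

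Per1 shared part of this order, with WT E above the tissue mean by 0.20 to 0.73 in all 4 tissues and KI A and KI C below it in all 4. In WT E the immediate early genes Fos and Ier2 were high in muscle (Fos 3.56 against -1.15 to 0.80, Ier2 -1.99 against -4.04 to -3.25, above background on 5 of the 6 arrays) and liver (Fos -1.66 against -3.89 to -2.47, Ier2 -0.84 against -1.62 to -1.38). Summed over the 10 immediate early genes, WT E had the highest level of the 6 mice in liver (3.37) and muscle (7.80), and not in brain or heart. The part of this in the Per levels was not tested. Dbp and Arntl deviated in opposite directions in 3 tissues of WT F, where Dbp was high by 0.10 to 0.40 in all 4 tissues and Arntl was low by -1.43 in liver, -0.51 in heart and -0.17 in muscle. In brain both were high (Arntl 0.19, Dbp 0.21).

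A reading of the whole loop was made by setting its arms against each other: the mean deviation of Arntl, Npas2 and Clock, minus that of Per1, Per2, Per3, Nr1d1, Nr1d2 and Dbp, a description with no test. WT F had the lowest arm difference in liver (-0.87), heart (-0.59) and muscle (-0.36) and WT E the second lowest in each of these (-0.46, -0.34 and -0.11). In brain the 6 mice lay within -0.09 to 0.15. The mean over the 4 tissues was -0.46 ± 0.37 (SD) in WT F and -0.25 ± 0.18 in WT E, against 0.26 ± 0.22 in WT D and 0.24 ± 0.33, 0.07 ± 0.12 and 0.14 ± 0.13 in KI A, B and C. WT D therefore lay with the KI mice, and the 3 WT mice spanned more than the whole KI group. Leaving out Npas2, dim in 3 tissues, changed the order within tissues: WT E (-0.61) was then lowest in heart and KI B (-0.29) in muscle, while WT F (-1.24) stayed lowest in liver. The means over tissues were then 0.36, -0.05 and 0.07 in KI A, B and C and 0.32, -0.29 and -0.41 in WT D, E and F.

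**Figure D4:**
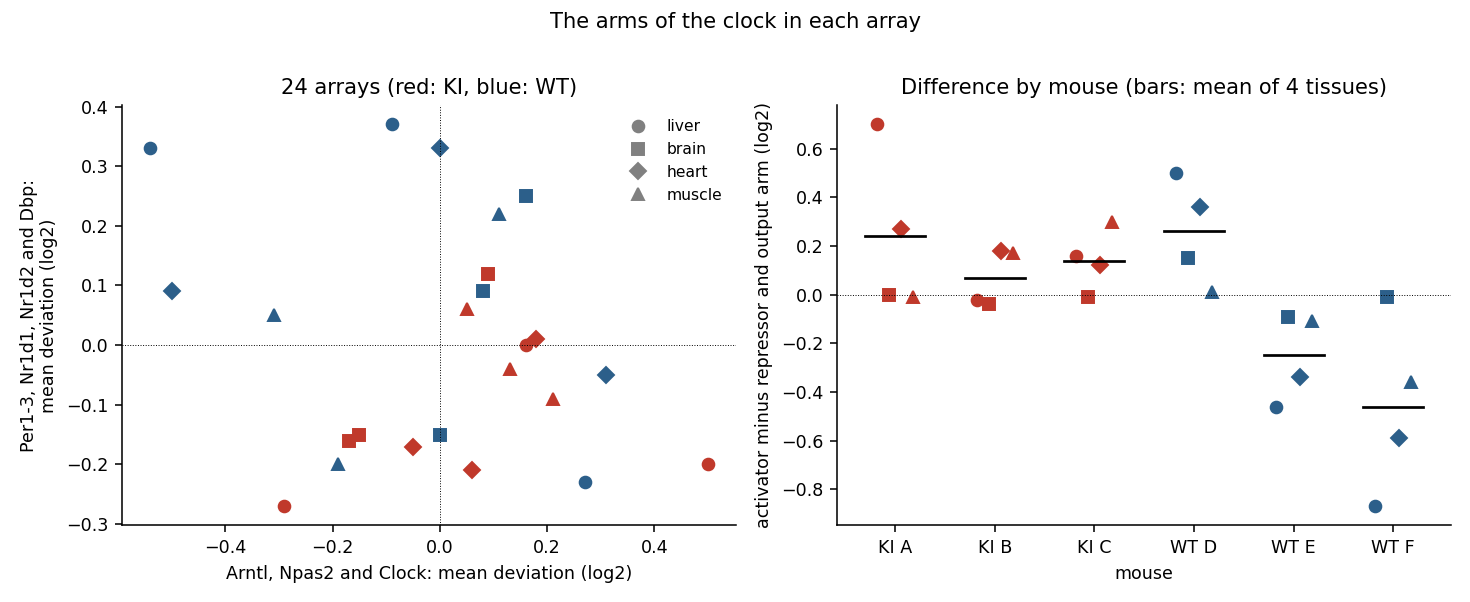
Left, mean deviation (log2) of the activator genes (x axis) and of the repressor and output genes (y axis) in each of the 24 arrays, red for KI and blue for WT; right, their difference by mouse, with bars at the mean of 4 tissues. WT E and WT F lie below 0 on the right (means -0.25 and -0.46), and WT D (0.26) lies with the KI mice.

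Genes of opposite phase were set against each other across the 6 mice of each tissue, for 3 pairs of transcripts and 12 relations in all. Arntl and Dbp correlated with r = -0.89 across the 6 livers (exact permutation p = 0.0111, two-sided, adjusted p = 0.133; rho = -0.83, exact p = 0.0583, adjusted p = 0.233). In the 6 hearts they gave r = -0.81 (exact permutation p = 0.025, adjusted p = 0.15; rho = -0.94, exact p = 0.0167, adjusted p = 0.2). Leaving out the 2 mice farthest from the median of Arntl gave r = -0.60 in liver and -0.79 in heart. In brain r was 0.48 (exact permutation p = 0.336, adjusted p = 0.635; rho = 0.26, exact p = 0.658) and -0.80 without the 2 farthest mice, so its sign rests on those mice. In muscle r was 0.15 (exact permutation p = 0.789, adjusted p = 0.789; rho = -0.09, exact p = 0.919). No relation passed after adjustment. The liver arrays shared 1 slide, and the heart slides held 4 and 2 arrays, too few for values within a slide.

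For Arntl with Nr1d1, r was -0.38 (liver), 0.43 (brain), -0.32 (heart) and -0.44 (muscle), with exact permutation p of 0.375 to 0.561 and adjusted p of 0.635 to 0.748. Without the 2 farthest mice r was -0.78, 0.50, 0.84 and -0.88, so the heart value changed sign. The corresponding rho was -0.14, 0.54, 0.14 and -0.60 (exact permutation p of 0.242 to 0.803, adjusted p of 0.58 to 0.919). Npas2 with Nr1d1 gave r = 0.76 in brain (exact permutation p = 0.0611, adjusted p = 0.244; rho = 0.89, exact p = 0.0333, adjusted p = 0.2), and 0.85 without the 2 farthest mice. In the other tissues Npas2 was dim, and its r was -0.39 to -0.20 (exact permutation p of 0.424 to 0.724, adjusted p of 0.635 to 0.789), with rho of -0.66 to -0.09 (exact p of 0.175 to 0.919, adjusted p of 0.525 to 0.919).

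Within groups the clock genes varied somewhat more than the typical gene. The median of their pooled SD within genotype was 0.29 (liver), 0.28 (brain), 0.29 (heart) and 0.32 (muscle), beside 0.21, 0.22, 0.22 and 0.28 over all genes tested. In liver Per3 (0.83) and Arntl (0.80) lay at percentiles 96.4 and 96.1 of all genes. The same Arntl was among the steadiest genes in brain (0.11, percentile 11.4), and Nr1d1 was so in heart (0.07, percentile 3.69) but not in brain (0.51, percentile 90.4).

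Across the 24 deviations from the tissue means, which share mice and, within a tissue, sum to 0, r is given as a description for the 9 members other than Npas2. Cry1 and Nr1d2 went together most closely (r = 0.74), then Per1 and Per2 (0.66), Per2 and Dbp (0.61) and Per1 and Nr1d1 (0.52). Arntl went with Clock (0.50) and against Dbp (-0.57) and Per2 (-0.55). Nr1d1 and Nr1d2 gave only 0.29.

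Outside the list, the transcripts most like Dbp by this measure, among 11620 genes, were Zbtb16 (r = 0.84), Ciart (0.74), Usp2 (0.71), Pdxk (0.70) and Dnajb1 (0.69), of which Ciart and Usp2 were on the lists of clock genes and outputs. Zbtb16, a glucocorticoid-responsive transcription factor, was 0.53, 0.71 and 2.06 in KI and 0.13, 1.66 and 2.77 in WT livers. The least like Dbp were Arhgap18 (-0.72), Arhgap29 (-0.70), Ypel2 (-0.66), Nup98 (-0.66) and Pisd (-0.62). Transcripts most like Arntl were Mllt3 (0.79), Ypel2 (0.74), Pfkfb4 (0.72), Nfyb (0.72) and Septin11 (0.71), and the least like it were Kcnd3 (-0.80), Pmm1 (-0.75), Adcy6 (-0.75), Rad54l2 (-0.72) and Hes1 (-0.71). Ypel2 stood at opposite ends of the 2 lists. Among the other clock genes, Tef, which shares the D-box with Dbp, had r = 0.68 with Dbp, and the output Wee1 had 0.62. Ciart ranged in liver from -1.94 in KI A to 1.18 in WT F, with -1.15 and -0.26 in KI B and C and -1.46 and 0.45 in WT D and E, an order of WT mice like that of liver Per2.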

How the data were processed

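RNA from liver, brain, heart and skeletal muscle of 3 KI and 3 WT mice was hybridised to 24 one-colour Agilent arrays (Cy3), 8 on each of 3 slides. All livers lay on slide 1 and all muscles on slide 3, while brain spanned slides 1 and 2 and heart slides 2 and 3. Per the file headers, the authors read spot intensity with Agilent Feature Extraction 12.0.3.1, which subtracts background within the array. The deposited value table holds a score, which matched the log2 signal centred and scaled to SD 1 within each array to within 0.005.

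Processed signals of 59305 non-control spots were averaged to 55681 probes after 121 to 347 outlier spots per array were left out. They were put on the log2 scale, minus the 75th percentile of each array (312.5 to 2519.4 in signal). Of the probes, 50.9% gained a symbol from RefSeq (GRCm38.p6), and the brightest probe stood for a gene. Between 49.4% and 68.4% of probes were well above background, and the number of arrays limits the precision. Within a tissue, genes were tested where all 3 arrays of at least 1 genotype had them well above background. The tests over several tissues took every gene that met this in at least 1 of the 4 tissues, also one outside the pair compared. Genotypes were compared within each tissue and over the mean of tissues with limma 3.58.1 in R 4.3.3 (lmFit, eBayes), with Benjamini-Hochberg adjustment over all genes and a threshold of 0.05. Tissues, mice and the genotype by tissue term were tested in 1 fit of 24 arrays. Scripts were tested on simulated data. With 3 against 3, an exact two-sided permutation test cannot go below p = 0.1.

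All 10 members are named, with test values for the 3 of smallest p in a comparison, and from each gene list those of smallest p, beside a few others named for their values. The members and lists were chosen with earlier results of these data known. Mice pair the tissues, since each gave all 4. Over 11620 genes, deviations of 1 mouse in different tissues correlated by 0.0207 on average (-0.2635 to 0.3388), and those of different mice of a genotype by -0.0094 (-0.3309 to 0.3663). These deviations are from group means of 3 mice, which ties the averages to each other, so their contrast is no separate check of the pairing. Alternatives were quantile normalization, normexp (offset 50), the value table, no filter, second probes, slide, age and mouse as terms, and leaving out arrays, mice or tissues.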

Additional observations from a re-analysis of the deposited data

How the results depend on the processing

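With the mouse as replicate block (consensus correlation -0.00139), the number of members called stayed at 0 by genotype and at 9, 6, 6, 8, 7 and 7 between tissues (Npas2 included), and no other call changed. Npas2, which entered only through brain, counts in these and the following numbers, so its calls in the pairs with brain are no support. Without it the main counts between tissues were 8, 6, 6, 7, 6 and 7. In the same order of tissue pairs the counts were 8, 4, 7, 8, 6 and 5 after quantile normalization and 8, 5, 7, 7, 6 and 5 with normexp. Leaving out 1 array gave 0 members by genotype, for genotype by tissue and, by mouse, for mice and age, and 9 to 9 between liver and brain, 5 to 7 between liver and heart, 6 to 8 between liver and muscle, 8 to 8 between brain and heart, 7 to 7 between brain and muscle and 6 to 7 between heart and muscle. With WT arrays alone, 3 members differed between heart and muscle in place of 7, a fit with fewer samples. Quantile normalization and normexp turned Dbp between liver and heart to -0.18 in both, the Arntl and Dbp correlation in muscle to -0.07 and -0.17, that of Arntl and Nr1d1 in heart to 0.07 and 0.20, and that of Npas2 and Nr1d1 in heart to 0.45 and 0.82; the cause was not tested. Over fits without 1 array, the genotype difference of Nr1d2 in brain ran from -0.32 to 0.01 (without WT E) and that of Dbp in muscle from -0.21 to 0.01 (without KI C). For Terf2ip, its second probe gave 0.08 (liver), 0.06 (brain), 0.06 (muscle) and 0.03 (mean of tissues). The following were chosen after seeing the data: leaving out the 3 or 4 arrays with transcripts of another tissue or of fat changed no genotype count, without Npas2 the arm difference of KI B was -0.05, and the number of members without overlap in liver was 3 in place of 4 under quantile normalization, normexp and the value table. Without the brain arrays, 13 of the 20 genes most or least alike stayed among the 5 at their end. Probes near background, as for Npas2 outside brain, limit the correlations above.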

Other observations

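Lists of acute and metabolic genes gave no call between mice of a genotype, by limma with adjustment over all genes. At an unadjusted p under 0.05, 3 of 10 immediate early genes, 4 of 10 glucocorticoid-responsive genes and 1 of 10 feeding-state genes differed between mice, beside 4.02% of all genes. Fkbp5, a glucocorticoid-induced co-chaperone, was 2.01, 3.51 and 3.18 in muscle of KI A, B and C and 2.02, 2.16 and 2.79 in WT D, E and F. The mean deviation of the feeding-state list in liver ran from -0.23 in WT F to 0.36 in WT E, and was 0.00 in KI A.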
